A study of Caenorhabditis elegans with 3 samples.

Results

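The genes described here are the F-box genes of the fbxa, fbxb and fbxc families and the math and bath genes of Caenorhabditis elegans. They were taken from the array's probe annotation as every row with a single gene symbol that starts with 1 of these 5 names and a number. The annotation held 341 such rows for 337 genes, and 336 of them had a value on all 3 arrays, out of 19293 genes or unnamed rows tested in all. The tested members were 137 fbxa, 83 fbxb, 40 fbxc, 44 math and 32 bath genes. The gene that was not tested, fbxb-101, lacked a value on the array of replicate 1 and stood at 0.17 and 0.0043 in replicates 2 and 3.

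The samples were 3 preparations of adult hermaphrodites, marked TP12 and "w/ emb 3" in the labels, each hybridised on 1 two-colour array. Channel 2 held the adult mRNA, and channel 1 held a mixed reference marked wild type that all 3 arrays share. The labels give no strain, treatment or culture conditions for the adults, and state neither what the reference was mixed from nor whether each preparation came from a culture of its own. The p-values therefore measure the spread between these arrays, which may be technical.

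F-box proteins bind the adaptor Skp1 through the F-box and bring a substrate to the cullin CUL-1, so that the substrate is marked with ubiquitin. BTB proteins with a MATH domain do the same for the cullin CUL-3, with the BTB domain on the cullin and the MATH domain on the substrate. Nematodes carry unusually many F-box and MATH genes, often in tandem arrays in the genome, and the role of most of them is not known. The bath genes are named for a BTB and a MATH domain and the math genes for a MATH domain. Not every member is a ligase adaptor. MATH-33 is a deubiquitinating enzyme, which removes ubiquitin, and the label of the gene set does not hold for it. Whether the label holds for the other math genes, which are not named for a BTB domain, was not examined here.

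Each value is a log2 ratio of the channels of an array, as deposited, where 1 stands for a doubling. The direction of the ratio is not stated. It is taken here as likely adults over reference, from the order of the channels in the labels and from marker genes of adult hermaphrodites. All 9 oocyte genes measured were higher, with a median log2 ratio of 1.52, as were 10 of 12 eggshell genes (median 1.21). Of the 30 major sperm protein genes 28 were lower (median -1.64), and of 12 moulting genes 6 were lower and none higher (median -0.50). These lists helped set the direction and are no independent evidence of it. Under the opposite direction, higher and lower would exchange places throughout. The yolk genes had a median of 0.24 over 3 measured genes, of which 1 passed, and the male genes a median of -0.25 over 4, of which 1 was lower. Since the samples were whole animals, fewer cells of a type and less RNA per cell cannot be told apart.

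A gene is called higher or lower where limma's test of the ratio against 0 gave a Benjamini-Hochberg adjusted p under 0.05 over all 19293 genes tested. On that rule 28.5% of all genes were called, 14.8% higher and 13.7% lower. The array of replicate 1 stood apart from the other arrays. Over all genes tested its values correlated at 0.69 with replicate 2 and 0.68 with replicate 3, while replicates 2 and 3 correlated at 0.90, where the genes share arrays and a reference. Replicate 1 is given beside each result that rests on it.

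The families did not lie on the same side of the reference. Most members of each family were not called. Among the called genes those of bath were mostly higher and those of fbxa and math mostly lower, while fbxb had higher members and no lower one, and fbxc had both. Of the 336 members, 33 were higher and 49 lower, which are 9.82% and 14.6%, so the lower share of the whole set was near that of all genes and the higher share below it. In bath 12 of 32 genes were higher (37.5%) and 3 lower (9.38%). In fbxa 28 of 137 were lower (20.4%) and 4 higher (2.92%). In math 10 of 44 were lower (22.7%) and 1 higher (2.27%). In fbxc 8 of 40 were lower (20%) and 5 higher (12.5%). In fbxb 11 of 83 were higher (13.3%), near the 14.8% of all genes, and 0 lower in limma, with 1 negative gene at an unadjusted p under 0.05. Without replicate 1, with array weights and with blocks of rows centred, 1 fbxb gene was lower.

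**Figure D1:**
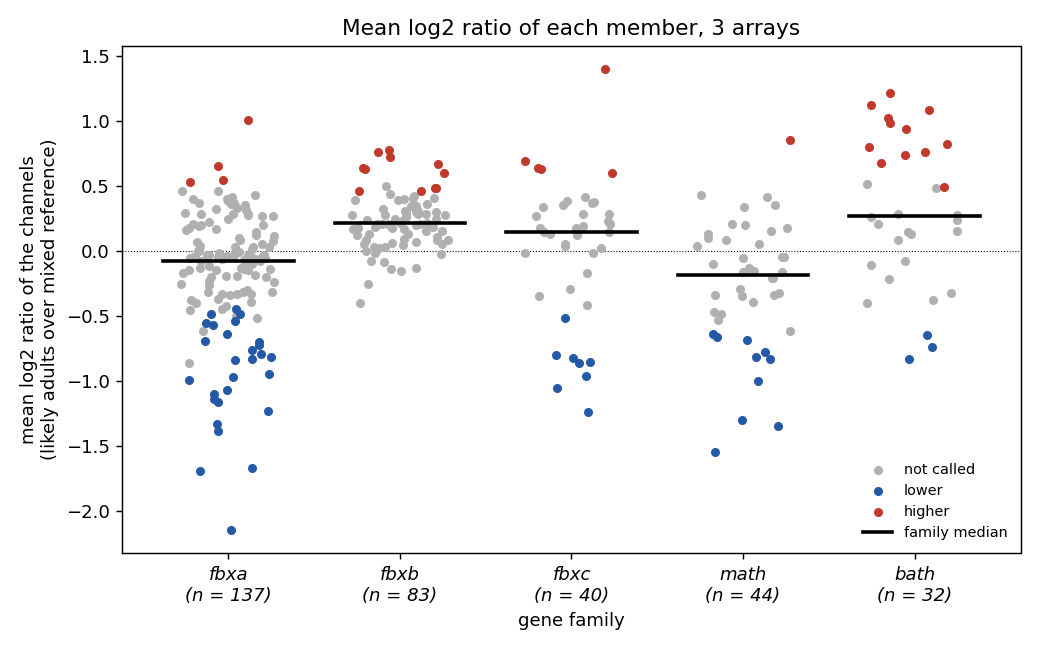
Mean log2 ratio of each tested member over the 3 arrays (vertical axis) by family (horizontal axis), coloured by whether it was higher, lower or not called in limma, with a bar at the family median. The fbxa and math points extend furthest down, to -2.15 and -1.55, and no fbxb gene was lower, while 12 of the 32 bath genes were higher.

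The medians of the families varied between arrays. The bath median was -0.055, 0.44 and 0.43 in replicates 1, 2 and 3. The fbxb median was 0.029, 0.35 and 0.25 in replicates 1, 2 and 3, and the fbxc median was -0.12, 0.30 and 0.20. So on the array of replicate 1 these 3 families had medians near or below 0, and on the other arrays all 3 medians were positive. The math median was -0.27, -0.20 and -0.15 and the fbxa median was -0.11, -0.082 and -0.063, below 0 on every array. The median of all genes tested lay between 0.0072 and 0.034 on the 3 arrays.

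**Figure D2:**
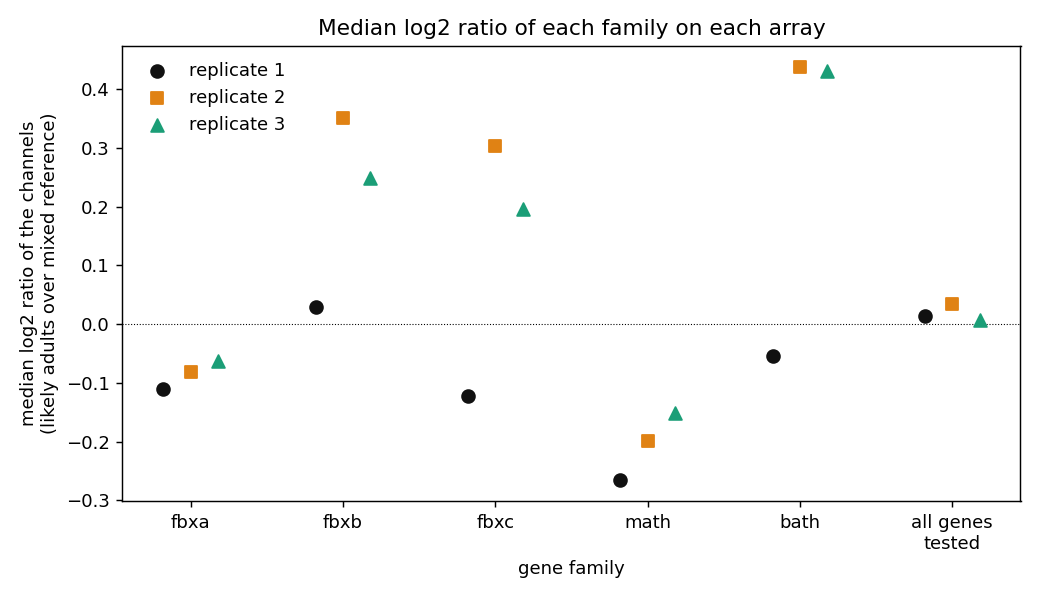
Median log2 ratio (vertical axis) of each family and of all genes tested (horizontal axis) on each array, 1 point per replicate. For fbxb, fbxc and bath replicate 1 lies below the other arrays, and for fbxa and math all 3 points lie below 0.

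Differences between the families were set side by side on each array, since both families of a pair share the array. The bath median exceeded the math median by 0.21, 0.64 and 0.58 in replicates 1, 2 and 3, a mean of 0.48 ± 0.23 (SD, n = 3). The fbxb median exceeded the fbxa median by 0.14, 0.43 and 0.31, a mean of 0.29 ± 0.15 (SD, n = 3). The fbxc median differed from the fbxa median by -0.013, 0.38 and 0.26, so its sign was not the same on all arrays. The fbxb and math medians lay furthest apart after bath and math, with a difference of math minus fbxb of -0.29, -0.55 and -0.40. The 3 F-box families together exceeded the math and bath genes together by only 0.062 ± 0.031 (SD, n = 3), since the directions within each kind differ. All 10 pairs of families were compared, and 8 kept 1 sign on all 3 arrays. No p is given for them, and 3 arrays allow no two-sided sign-flip p under 0.25.

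The members also varied among themselves to different degrees. The SD of the mean ratio over members was 0.57 in bath, 0.56 in fbxc, 0.51 in fbxa and 0.50 in math, while the SD between arrays had a median of 0.23 to 0.31 over the genes of these families. In fbxb it was only 0.22, while the SD between arrays had a median of 0.25, so the fbxb genes lay closer to each other than those of the other families. Over the fbxb genes the arrays of replicates 1 and 2 correlated at 0.07 and those of replicates 2 and 3 at 0.51, against 0.69 and 0.95 over the bath genes. These correlations are over genes that share arrays and a reference, and describe these 3 arrays. Of the 83 fbxb genes 73 had a positive mean, and 80 were positive in replicate 2, 70 in replicate 3 and 45 in replicate 1.

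The fbxa genes were led by fbxa-164, fbxa-24 and fbxa-6, which were lower on every array. The ratio of fbxa-164 (sequence name C08E3.7) was -2.82, -1.95 and -1.68 in replicates 1, 2 and 3. Its mean was -2.15 ± 0.59 (SD, n = 3), or 4.43-fold lower (adjusted p = 0.000523, limma), the largest deviation from 0 of any tested member. The gene fbxa-24 (F54D10.2) stood at -1.92, -1.79 and -1.38, with a mean of -1.70 ± 0.28 (adjusted p = 0.000389, limma). The gene fbxa-6 stood at -1.64, -1.80 and -1.57, with the smallest spread of these 3 (mean -1.67 ± 0.11, adjusted p = 0.000251, limma). The fourth was fbxa-165 (C08E3.8), at -1.60, -1.50 and -1.05. Each of these 4 genes passed when any 1 of the arrays was left out, as did 19 of the 28 lower fbxa genes. Over all genes tested, 1629 of the 2647 lower genes did.

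Of the other lower fbxa genes, fbxa-158 is known for its part in the intracellular pathogen response, where it acts with CUL-6 and Skp1-related proteins. It stood at -0.85, -0.87 and -0.66 in replicates 1, 2 and 3, a mean of -0.80 ± 0.11 (SD, n = 3; adjusted p = 0.00451, limma). The 28 lower fbxa genes ran from -2.15 to -0.45 in mean ratio, and 10 of the 137 fbxa genes were lower at or below -1 (7.3%), against 4.88% of all genes. The other 6 of these 10 are named for their values. The gene fbxa-69 stood at -0.61, -1.76 and -1.64, with replicate 1 nearest to 0, and fbxa-163 (C08E3.6) stood at -1.74, -1.01 and -0.94, with replicate 1 furthest from it. The genes fbxa-209, fbxa-180, fbxa-162 and fbxa-55 had means of -1.16 ± 0.17, -1.14 ± 0.07, -1.11 ± 0.35 and -1.07 ± 0.32 (SD, n = 3). The lower fbxa gene with the smallest mean ratio in size, fbxa-64, was lower at -0.43, -0.44 and -0.47, and it did not pass without replicate 2 or without replicate 3. Without replicate 1 the lower fbxa genes numbered 43, with 20.1% of all genes lower in that fit.

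The 4 higher fbxa genes were fbxa-215, fbxa-206, fbxa-191 and fbxa-114. The ratio of fbxa-215 (Y45F10C.3) was 0.68, 1.17 and 1.16 in replicates 1, 2 and 3, a mean of 1.00 ± 0.28 (adjusted p = 0.00289, limma). It was the only fbxa gene at or above 1, and the only higher one that passed whichever array was left out. The values of fbxa-206 lay between 0.57 and 0.73, and it did not pass without replicate 3. Those of fbxa-191 were 0.70, 0.71 and 0.23, and it did not pass without replicate 2. Those of fbxa-114 were 0.87, 0.21 and 0.51, and it did not pass without replicate 1, without replicate 3, with each array centred on its median, or with genes on at least 2 arrays included. The higher fbxa genes numbered 10 without replicate 1 and 2 without replicate 3, where 22.2% and 10.1% of all genes were higher. The largest spread of the family was that of fbxa-185, at 0.14, -1.08 and -1.65, which was not called with all arrays and passed without replicate 1 (-1.37) and without replicate 2 (-0.75).

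The higher fbxb genes were led by fbxb-7, fbxb-11, fbxb-22 and fbxb-82. The ratio of fbxb-7 (Y20C6A.2) was 0.98, 0.63 and 0.71 in replicates 1, 2 and 3, a mean of 0.77 ± 0.19 (SD, n = 3; adjusted p = 0.00618, limma). The ratio of fbxb-11 was 0.90, 0.67 and 0.72, a mean of 0.76 ± 0.12 (adjusted p = 0.00559, limma). These were the only 2 of the 11 higher fbxb genes that passed in all 3 fits with an array left out. Over all genes tested, 1618 of the 2854 higher genes did. The values of fbxb-22 were 0.55, 0.96 and 0.65, and it did not pass without replicate 2. Those of fbxb-82 were 0.23, 0.59 and 1.19, and it did not pass without replicate 3.

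No fbxb gene reached 1 in either direction, where 3.88% of all genes were higher and 4.88% lower by as much. The lowest fbxb genes were fbxb-5, at -0.46, -0.31 and -0.44, and fbxb-65, at -0.61, 0.080 and -0.23, and neither was called with all arrays. The gene fbxb-3 stood at -0.16, 0.50 and 0.28 and was not called, but passed at 0.39 without replicate 1 and at 0.30 with array weights. The largest spread was that of fbxb-37, at -0.94, 0.86 and 0.89, where replicate 1 lay opposite to the other arrays. Without replicate 1 its mean was 0.88 and passed, and without replicate 2 or 3 it was -0.023 or -0.036. The count of higher fbxb genes was 33 without replicate 1, and 3 without replicate 2 or 3, where 22.2%, 9.93% and 10.1% of all genes were higher.

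The fbxc genes lay on both sides. The gene fbxc-50 (C17F4.5) stood at 1.41, 1.48 and 1.31 in replicates 1, 2 and 3, a mean of 1.40 ± 0.09 (SD, n = 3) or 2.64-fold higher (adjusted p = 0.000455, limma). It had the highest mean of all 336 members, and its 3 values lay close together. The next were fbxc-21, at 0.56, 0.89 and 0.62, fbxc-28, at 0.49, 0.76 and 0.65, and fbxc-44, at 0.34, 0.87 and 0.68. None of those 3 passed without replicate 2, and fbxc-28 and fbxc-44 did not pass without replicate 3 either. The remaining higher gene, fbxc-25, stood at 1.09, 0.27 and 0.43 (adjusted p = 0.0449, limma). Both fbxc-25 and fbxc-50 passed whichever array was left out.

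The lower fbxc genes were mostly those with low numbers. All 7 from fbxc-1 to fbxc-7 were lower, and fbxc-54 was the other, a grouping that was seen in the values. Of these 8 genes 6 passed in all 3 fits with an array left out. The gene fbxc-7 did not pass without replicate 2 or without replicate 3. The gene fbxc-1, at -0.068 in replicate 1, did not pass without replicate 3. The sequence names of fbxc-5, fbxc-4, fbxc-2 and fbxc-1 run from C44C8.1 to C44C8.4. A probe of 1 may also detect another, so the 7 may not be separate measurements. The gene fbxc-6 stood at -1.54, -1.11 and -1.07, a mean of -1.24 ± 0.26 (adjusted p = 0.00114, limma). The values of fbxc-3 were -0.42, -1.28 and -1.47, those of fbxc-4 were -0.54, -1.27 and -1.07, and those of fbxc-5 were -0.35, -1.05 and -1.19. In these 3 genes replicate 1 lay nearest to 0, and in fbxc-6 it lay furthest from 0. A row annotated to fbxc-8, fbxc-1, fbxc-2 and fbxc-4 together, which is no member, stood at 0.22, -0.25 and -0.29 and was not called. The rows named for fbxc-1, fbxc-2 and fbxc-4 alone averaged -0.80, -0.86 and -0.96. The gene fbxc-16, at -0.86, 0.26 and 0.54, had the largest spread of the family, and without replicate 1 it stood at 0.40 and passed. The higher fbxc genes numbered 15 without replicate 1, 2 without replicate 2 and 3 without replicate 3, where 22.2%, 9.93% and 10.1% of all genes were higher.

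Among the math genes math-38, math-27 and math-3 were the lowest. The ratio of math-38 (T07H3.3) was -1.41, -1.89 and -1.33 in replicates 1, 2 and 3, a mean of -1.55 ± 0.30 (SD, n = 3) or 2.92-fold lower (adjusted p = 0.000564, limma). The ratio of math-27 (F36H5.2) was -1.26, -1.45 and -1.33, a mean of -1.35 ± 0.10 (adjusted p = 0.000523, limma). The ratio of math-3 was -1.29, -1.43 and -1.18, and that of math-22 was -1.09, -0.997 and -0.91. None of these 4 had a value above -0.9 on any array. Of the 10 lower math genes 8 passed in all 3 fits with an array left out, against 1629 of the 2647 lower genes of all tested.

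The only higher math gene was math-33 (H19N07.2), which encodes the deubiquitinating enzyme named above. Its ratio was 1.15, 0.66 and 0.74 in replicates 1, 2 and 3, a mean of 0.85 ± 0.26 (SD, n = 3; adjusted p = 0.00546, limma), and it passed whichever array was left out. The next, math-46, stood at 0.30, 0.46 and 0.54 and was not called (adjusted p = 0.0511, limma), and it passed without replicate 1. The count of higher math genes was then 3, with 22.2% of all genes higher in that fit. The largest spread was that of math-40, at -1.36, -0.23 and -0.25, which was not called and passed without replicate 2 (-0.81) or replicate 3 (-0.80).

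The bath genes were led by bath-19, bath-15, bath-1 and bath-35, each higher on all 3 arrays. The ratio of bath-19 (F59H6.1) was 1.70, 1.09 and 0.86 in replicates 1, 2 and 3, a mean of 1.22 ± 0.44 (SD, n = 3) or 2.32-fold higher (adjusted p = 0.00258, limma). The ratio of bath-15 (C08C3.2) was 0.92, 1.38 and 1.07, a mean of 1.12 ± 0.24 (adjusted p = 0.00161, limma). The values of bath-1 were 0.70, 1.63 and 0.92, and those of bath-35 were 1.27, 0.87 and 0.93. All 4 had a mean above 1 and passed with any array left out. The gene bath-42, whose protein is known to bind CUL-3, stood at 1.29, 0.62 and 0.48, a mean of 0.80 ± 0.43 (adjusted p = 0.0145, limma).

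The other higher bath genes had mean ratios from 0.49 to 0.98. Of these bath-29 (F14D2.4) had the smallest spread, at 0.94, 1.01 and 0.99. Of the 12, 8 passed in all 3 fits with an array left out, and bath-2, bath-4, bath-9 and bath-41 did not. Over all genes tested, 1618 of the 2854 higher genes passed in all 3. Without replicate 1 the higher bath genes numbered 19, with 22.2% of all genes higher in that fit. The 3 lower bath genes were bath-26, at -0.90, -0.91 and -0.69, bath-38, at -0.51, -0.91 and -0.80, and bath-46, at -0.14, -0.93 and -0.87. The last of these did not pass without replicate 2 or without replicate 3. The gene bath-21, at -0.16, 1.03 and 0.68, had the largest spread of the family, was not called with all arrays, and stood at 0.86 and passed without replicate 1.

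**Figure D3:**
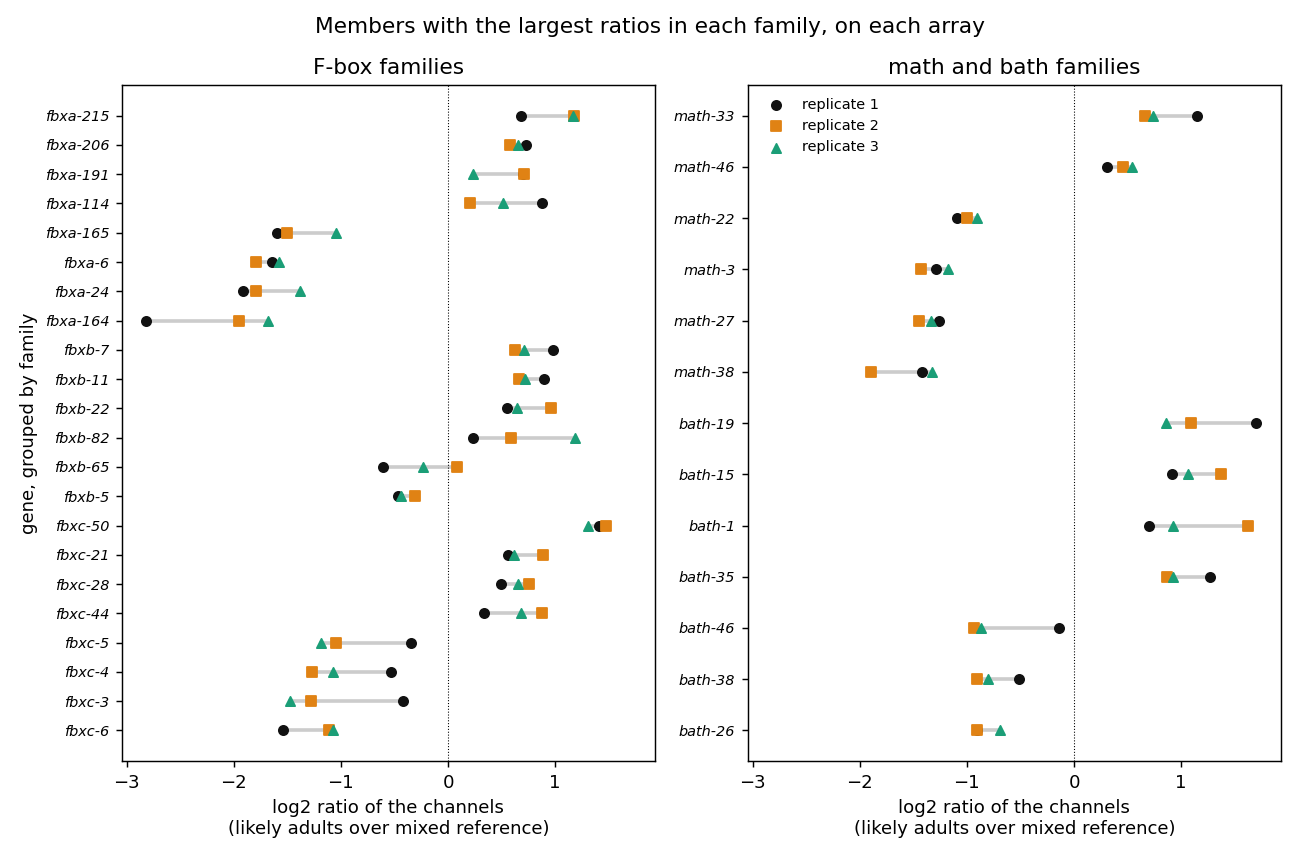
Log2 ratio (horizontal axis) of the members with the largest ratios in each direction (vertical axis), up to 4 a family and direction, with 1 point per replicate and a line over their range. The values of fbxc-50 and math-27 lie close together, while those of bath-1, fbxb-82 and fbxc-3 spread widely on 1 side of 0. Of the genes drawn, fbxb-65, fbxb-5 and math-46 were not called.

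Rows annotated to several genes were left out of the members, and 6 of them carry a family name. The row of F14D2.8 and bath-28 was higher at 0.55, 0.87 and 0.65 in replicates 1, 2 and 3, and that of fbxc-21 and fbxc-22 was higher at 0.64, 0.70 and 0.41, close to fbxc-21 itself at 0.69 ± 0.17 (SD, n = 3). The row of math-49, math-23 and math-50 was lower at -0.40, -0.85 and -0.66, where the rows of math-23 and math-49 alone averaged -0.83 and 0.15. The other 3 rows, with fbxa and fbxc names, were not called.

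Members next to each other in the genome often lay on the same side of 0. In the gene order of RefSeq assembly WBcel235, counting coding genes and pseudogenes, 162 of the 334 members that could be placed had another member as a neighbour, in 47 runs. Of the 105 adjacent pairs of the same family 72.4% had mean ratios of the same sign, against 59.6% of all pairs within a family, as a description. In all 14 adjacent pairs in which both genes were called the direction was the same. Called genes of most families lay mainly on 1 side wherever they were placed, as in fbxa with 28 lower and 4 higher. The share for called pairs that are not adjacent was not computed. Similar neighbouring genes may be detected by the same probe, and the probe sequences were not used here. Neighbours therefore cannot be taken as separate measurements. The part of shared detection in this pattern was not tested.

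The runs of 5 or more members went different ways. Over all 47 runs, 29 of the 162 members in them were lower and 13 higher. Among all 336 tested members 49 were lower and 33 higher, and among all genes 13.7% and 14.8%. The run of bath-46, bath-26, bath-47, bath-33, fbxa-161, fbxa-162 and fbxa-163 held 5 lower genes of 7, and its means ran from -1.23 to -0.11. Only btb-15, which was not called at -0.10, lay between it and the run of fbxa-164, fbxa-165, fbxa-166, fbxa-158, fbxa-159 and fbxa-160, with 4 lower genes of 6. So all 13 members of this stretch, from 2 families, had a mean below 0, and 9 of them were lower. The run of fbxa-185 to fbxa-189 held 2 lower genes of 5, from -0.86 to -0.13, and next to it lay the Skp1-related gene skr-5, at -2.19. The run that holds fbxa-151 and fbxa-29 had 2 lower genes of 5, and that of math-24, math-23 and math-22 had 3 of 5. The run of fbxc-32, fbxc-41, fbxc-57, fbxc-7 and fbxc-6 also had 2 lower genes of 5, and the shorter run of math-28, math-27, math-26 and math-3 had 3 of 4, with a median of -0.97.

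The other runs of 5 or more held at most 1 called gene each. The longest, of 12 math genes from math-15 to math-9, had 1 lower gene and means from -0.66 to 0.20. The run of fbxa-200, fbxc-24, fbxc-27, fbxc-31, fbxc-33 and fbxc-29 had means from 0.12 to 0.41 and no called gene. In a run of 3, the adjacent genes bath-1, bath-3 and bath-5 were all higher, at 1.08, 0.94 and 0.82.

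**Figure D4:**
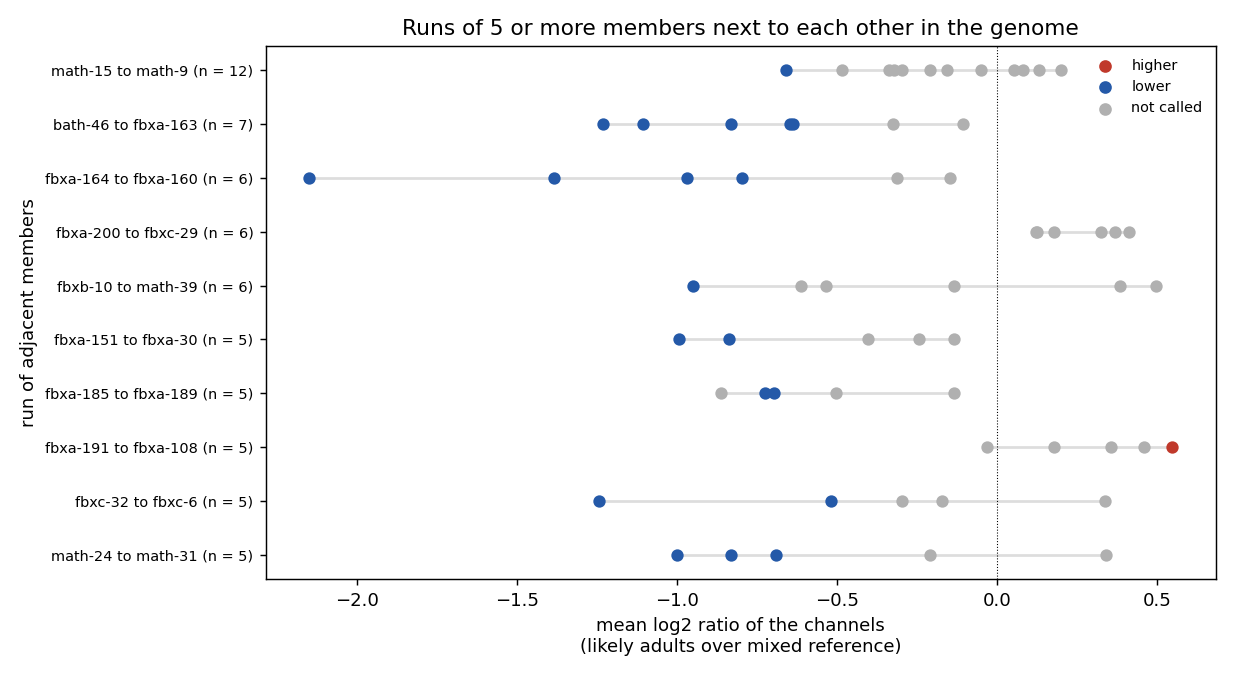
Mean log2 ratio (horizontal axis) of the members of each run of 5 or more members adjacent in the genome (vertical axis), 1 point per gene, coloured by its call. The runs with bath-46, fbxa-164, fbxa-151 and fbxa-185 lie wholly below 0, and that of fbxa-200 wholly above it.

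The other genes of these ubiquitin ligases were taken as a list of 77 genes, of which 62 were tested. Of these, 20 were higher (32.3%), 7 lower (11.3%) and 35 were not called, against 14.8% higher and 13.7% lower of all genes. The median was 0.34, against 0.018 for all genes tested. The scaffold gene cul-1 was higher, at 0.76, 0.75 and 0.75 in replicates 1, 2 and 3 (mean 0.75 ± 0.0034, SD, n = 3; adjusted p = 0.00499, limma). The gene of the RING subunit, rbx-1, stood at 1.09, 0.45 and 0.44 and was higher (adjusted p = 0.024, limma). The other 5 cullin and RING genes tested were not called, among them cul-2 at 0.34 ± 0.14 and cul-6 at -0.067 ± 0.24 (SD, n = 3). The gene of the cullin CUL-3, cul-3, was on the list but was not among the genes tested. Without replicate 1, and with array weights, cul-2 passed at 0.42 and 0.39. Of 7 genes that control cullins 3 were higher (42.9%) and 0 lower. The higher ones were cand-1, for substrate adaptor exchange, at 0.94 ± 0.40, and dcn-1, for neddylation, at 0.72 ± 0.30. The third was rfl-1, of the enzyme that activates NEDD8, at 0.64 ± 0.22. Without replicate 2 dcn-1 was not called, and rfl-1 was not called at 0.26 with the median of neighbouring rows subtracted.

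The Skp1-related genes, whose proteins bind F-box proteins, went both ways. Of 16 tested 6 were higher (37.5%) and 4 lower (25%), against 14.8% and 13.7% of all genes. The lowest was skr-5, at -1.97, -2.48 and -2.11 in replicates 1, 2 and 3, a mean of -2.19 ± 0.26 (SD, n = 3; adjusted p = 0.000169, limma), and skr-3 was lower as well at -0.85 ± 0.34. The highest was skr-9, at 1.08, 1.09 and 1.11. The similar genes skr-1 and skr-2 had opposite signs, with skr-1 at -1.003, -0.90 and -0.59 and skr-2 at 0.86, 0.57 and 0.64, and a probe of 1 may also detect the other.

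The list also held 8 chosen F-box genes outside the 3 families, which do not stand for all such genes. Of the 7 tested 6 were higher (85.7%) and 1 lower (14.3%), against 14.8% and 13.7% of all genes. The highest was fsn-1, which acts at synapses, at 1.04 ± 0.25, followed by sel-10, a negative regulator of Notch signalling, at 0.79 ± 0.24, and fog-2, needed for sperm in hermaphrodites, at 0.71 ± 0.13 (SD, n = 3). Without replicate 3 fog-2 did not pass. The lower gene was dre-1, a developmental timing gene, at -0.55 ± 0.25. Of 25 other BTB genes 3 were higher (12%) and 2 lower (8%), both below the shares of all genes. The lowest was btb-16, at -0.80, -1.59 and -1.52, and btb-10 and btb-11 were higher at 0.59 ± 0.18 and 0.48 ± 0.10 but did not pass without replicate 2 or without replicate 3. The gene mel-26, a known CUL-3 adaptor of the early embryo, was not called at 0.20 ± 0.36.

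**Figure D5:**
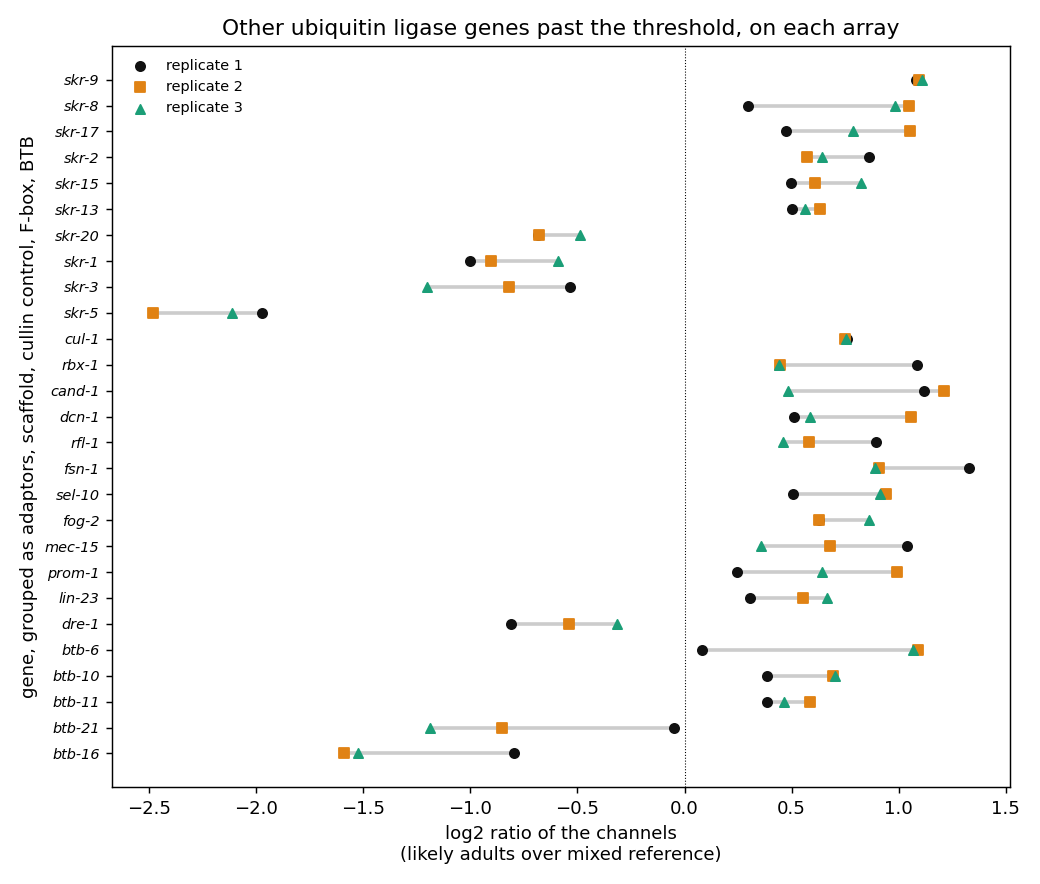
Log2 ratio (horizontal axis) on each array of the other ubiquitin ligase genes that were called (vertical axis), with 1 point per replicate and a line over their range. Of the 27 genes 20 lie above 0 and 7 below, and skr-5 lies furthest from 0.

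The calls rest on the variance shared across genes. Without that sharing, in limma's fit with each gene's own spread over 3 arrays, 0 of the 336 members passed. At an unadjusted p under 0.05 there were 41 positive and 43 negative members. Of all 19293 genes tested 0 passed as well, and 4903 had an unadjusted p under 0.05 in that fit. With arrays weighted by their agreement, the weights were 0.282, 1.12 and 3.16 for replicates 1, 2 and 3, and 96 members were higher and 77 lower, where 25.3% and 22.9% of all genes were.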

How the data were processed

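The deposited table holds 1 log2 ratio per row and array, and the authors deposited it centred near 0, with array means from -0.0034 to -0.0020. The base was read from the values: raised from base 2, all linear ratios below 10 matched whole multiples of 0.001 to within 0.01 of that unit. The sources used here do not give the scanner, dyes, background correction, normalization or genome build, and no intensities were used, so dim spots could not be set apart. Of the 20000 rows, 19904, 19832 and 19839 held a value in replicates 1, 2 and 3. Of these rows 15655 had a single symbol in the platform annotation, 198 several and 4147 none. Symbols were checked by gene identifier against RefSeq assembly WBcel235, which matched 338 of the 341 member rows and changed no member's symbol. The table held 0 columns of no sample.

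Rows of a symbol were averaged on each array. The 4 members with several rows were fbxa-121, fbxa-140, fbxb-66 and bath-34, and the means of their rows differed by 0.059 to 0.29 (fbxa-140, where 1 of 2 rows lacks replicate 2). Every gene with 3 values entered limma's two-sided test against 0 (lmFit and eBayes, limma 3.58.1 in R 4.3.3) with Benjamini-Hochberg adjustment. The test leaves out the reference's own spread. The fit was also run on simulated data in which no array stood apart from the others, so that run is no evidence for the calls on these arrays. Medians of families are descriptions. Alternatives changed the centring, variance model, array weights, averaging of rows, missing values and place in the table, and left out each replicate. The closing section gives their effect.

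The named members were, in each family, the up to 4 called genes with the largest ratios in each direction (the 2 most extreme where fewer than 2 passed), the gene with the largest SD, 7 known genes and those whose rows differed most. Of the known genes fbxa-75 and bath-40 were not analysed here. Members, lists and rules were chosen with earlier results of these data known. The runs of neighbours and their rule were chosen after the values were seen.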

Additional observations from a re-analysis of the deposited data

How the results depend on the processing

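With arrays weighted by agreement, the higher and lower counts were 96 and 77 for all members, 15 and 46 for fbxa, 39 and 1 for fbxb and 4 and 16 for math. The higher counts were 18 for fbxc and 20 for bath. Without moderation of the variance every count was 0, as it was over all 19293 genes tested. An unadjusted p under 0.05 was then found for 41 positive and 43 negative members, and for 4903 of all genes. With 32 blocks of rows centred (16.2% of all genes higher and 17.2% lower), fbxa had 10 higher genes and a median of -0.111, fbxb 1 lower gene, math 16 lower genes and a median of -0.314, and bath 5 lower genes, and the F-box families exceeded the MATH families by 0.142. With the median of neighbouring rows subtracted (16.4% and 17.2%), fbxa had 11 higher genes and a median of -0.111, and math 2 higher genes and a median of -0.269. Leaving out each replicate in turn, the counts ran from 17 to 80 higher for all members, 2 to 10 higher and 21 to 43 lower for fbxa, 3 to 33 higher and 0 to 1 lower for fbxb, 2 to 15 higher for fbxc, 1 to 3 higher for math and 8 to 19 higher for bath. In these fits 9.93% to 22.2% of all genes were higher and 9.34% to 20.1% lower. Of the 33 higher and 49 lower members 14 and 35 passed in all 3 of these fits. Over all genes tested, 1618 of 2854 higher and 1629 of 2647 lower genes did. Among the 61 genes named by rule, the sign of 2 that were not called changed: fbxc-16 stood at 0.40 without replicate 1 (-0.302 without replicate 3) and at 0.385 with array weights, and fbxb-37 at -0.023 without replicate 2 and -0.036 without replicate 3 (0.876 without replicate 1). The cause was not tested. The other 187 of 234 counts, medians and differences kept within 1.5 times their count or within 1 SD over the arrays. Of the 48 called genes named by rule, 9 did not pass without replicate 2 and 9 without replicate 3. Leaving out similar members was not run, since no protein sequences were used. No paired analysis was possible because the samples form 1 group. Without spot intensities, the signal over background behind each ratio is unknown.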
